A study of Mus musculus with 65 samples.

Results

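Oxidative phosphorylation is carried out by 5 protein complexes of the inner mitochondrial membrane, and the genes of their subunits were followed here in the hindbrain of Atxn1 knockin mice. Protein-coding genes were taken by mouse symbol (Nduf, Sdha to Sdhd, Uqcr, Cox4 to Cox8, Atp5, and the mitochondrial mt-Nd, mt-Co, mt-Cytb and mt-Atp genes), without the Ndufaf assembly factors and without pseudogenes. The rule found 98 genes, and 97 of the 49670 genes counted reached 1 CPM (counts per M counts of the library) in at least 3 libraries. Of these, 84 lie in the nuclear genome, with 36 in complex I, 4 in complex II, 8 in complex III, 19 in complex IV and 17 in complex V, and 13 lie in the mitochondrial genome. Cox8c, a complex IV isoform, reached that level in 0 libraries. The rule itself uses symbols and a level over all libraries, and no difference between groups.

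The complexes pass electrons from NADH and succinate to oxygen, pump protons across the membrane and use the gradient to make ATP. Complex II is built from nuclear genes alone, whereas the other complexes combine nuclear subunits, made in the cytosol and imported, with a few core subunits transcribed and translated inside the organelle. Nuclear subunit genes are transcribed singly, with NRF1, GABPA of the ETS family and the PGC-1 coactivators among their known regulators. The mitochondrial genes come from long transcripts of both strands that are cut into single RNAs, mt-Nd6 alone among the subunits being read from the light strand. Neurons depend on this pathway for most of their ATP.

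The 65 libraries were made from total RNA of dissected C57BL/6J mouse cerebellum, medulla and pons with a strand-specific protocol. Each tissue and age had 3 groups: wild type mice given vehicle, knockin mice with the Atxn1[82Q] genotype given vehicle, and the same knockin genotype given an antisense oligonucleotide (ASO) against Atxn1. In that order the groups held 4, 4 and 4 libraries in cerebellum at 18 weeks, 3, 3 and 3 in medulla and again in pons at 18 weeks, 8, 8 and 7 in medulla at 28 weeks, and 4, 4 and 4 in pons at 28 weeks. There was no wild type group given the ASO, so that the comparison of ASO with vehicle was made within the knockin genotype. The labels put the medulla libraries at 28 weeks in 2 batches, with 12 libraries in batch 1 and 11 in batch 2. They do not say whether each library came from a separate mouse, and the p-values therefore measure the spread between these libraries only. The column headers carry a number after the replicate, and the 65 libraries carry 38 such numbers. Of these, 21 recur in libraries of more than 1 tissue, each at 1 age and in 1 group, and 6 of them in all 3 tissues. Whether a number stands for a mouse is not stated. Comparisons between tissues were fitted without pairing, and if the numbers are mice, their libraries are not independent.

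Depth ran from 49.2 to 119.1 M counts per library, with a median of 77.0 M. Atxn1, the gene that was targeted, stood at 60.9 ± 3.4 CPM (SD, n = 4) in knockin and 50 ± 4.93 (n = 4) in wild type cerebellum, and at 35.4 ± 12.9 (n = 4) with the ASO, each difference giving p = 0.029 in an exact two-sided permutation test. In medulla at 28 weeks it stood at 44.4 ± 2.97 (n = 8), 34.8 ± 3.16 (n = 8) and 33.0 ± 7.98 CPM (n = 7). At 18 weeks the medulla and pons libraries labelled wild type replicate 3 (15.3 and 16.5 CPM) lay below every knockin vehicle library, and those labelled ASO replicate 2 (39.0 and 51.0 CPM) lay near them. Hox genes, which mark the medulla, summed to 35.0 to 124 CPM in 5 libraries labelled medulla at 28 weeks (wild type 5, knockin vehicle 8, ASO 3, 6 and 7), against 184 to 443 CPM in the other medulla libraries of that age. Purkinje cell and granule cell markers were high in cerebellum alone, at 10900 to 12000 and 5060 to 5560 CPM in the wild type. Leaving out the libraries in doubt at 18 weeks gave no call among the subunit genes for genotype or treatment in either tissue, and the values without the 5 medulla libraries are given with that comparison.

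A short stretch of the mitochondrial genome shows how tightly these genes are packed and why their reads cannot always be told apart. The ends of mt-Atp8 and mt-Atp6 overlap by 43 bases at chrM:7927-7969 (GRCm38, plus strand), and a read inside it belongs to both genes. Stretches of 100 bases before the RefSeq start of 3 nuclear genes (GRCm38.p6, each on its gene's own strand) are shown: Ndufb2 and Cox6b2, which passed the test in medulla and in pons at 28 weeks, and Cox6a1, the widely expressed partner of the isoform Cox6a2 and a promoter that holds motifs of both NRF1 and the ETS family. They lie at chr6:39592465-39592564 (Ndufb2, plus strand), chr7:4753095-4753194 (Cox6b2, minus) and chr5:115348959-115349058 (Cox6a1, minus). The GENCODE annotation used for gene positions starts Cox6a1 further upstream, so the last bases of its stretch lie in an annotated first exon. Capitals mark the ETS motif CCGGAAG, read on the opposite strand.
mt-Atp8 and mt-Atp6: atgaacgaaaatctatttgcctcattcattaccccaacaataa
Ndufb2: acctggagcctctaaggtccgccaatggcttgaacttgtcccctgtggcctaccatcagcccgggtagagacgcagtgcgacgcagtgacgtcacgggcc
Cox6b2: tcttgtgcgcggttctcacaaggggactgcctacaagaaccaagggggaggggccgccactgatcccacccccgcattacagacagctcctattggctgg
Cox6a1: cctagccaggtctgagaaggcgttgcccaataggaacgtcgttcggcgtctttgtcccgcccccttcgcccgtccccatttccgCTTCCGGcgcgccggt

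A RefSeq promoter was matched for 69 of the 84 nuclear genes, and 250 bases before the start were searched on both strands for 3 motifs. The NRF1 motif GCGCATGCG was found in 6 of the 69 (8.7%), namely Ndufa8, Ndufa11, Cox6a1, Atp5g2, Atp5k and Atp5l, against 1.49% of all 27025 promoters. The ETS motif was found in 11 of the 69 (15.9%), against 7.05% of all promoters. The YY1 motif AAGATGGCG was found in 0 of the 69, against 0.607% of all promoters. The NRF1 motif overlaps its own reverse complement, the letters of no motif lie inside another, and none of the 3 was found in the 250 bases before Ndufb2 or Cox6b2.

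In every library the 13 mitochondrial genes took more of the counts than the 84 nuclear genes together. Over all 65 libraries the mitochondrial genes held 3.98% to 8.73% of counts (median 5.16%) and the nuclear genes 1.18% to 2.35% (median 1.38%). Reads of mt-Co2, mt-Co3, mt-Atp6, mt-Nd3 and mt-Nd4l are shared with nuclear copies, as given below, and these genes added little to the mitochondrial share. In wild type pons at 18 weeks they averaged from 5.89 (mt-Nd4l) to 325 CPM (mt-Atp6), against 22000 CPM for mt-Co1. In wild type mice the mitochondrial share was 4.56% ± 0.277 (SD, n = 4) in cerebellum, 5.90% ± 0.75 (n = 3) in medulla and 5.13% ± 0.768 (n = 3) in pons at 18 weeks, and 5.17% ± 0.244 (n = 8) in medulla and 4.90% ± 0.141 (n = 4) in pons at 28 weeks. The nuclear share in the same groups was 1.34% ± 0.0229, 1.32% ± 0.128, 1.29% ± 0.0694, 1.51% ± 0.082 and 1.41% ± 0.0545. The order of the tissues thus differed between the sets, and at 18 weeks the nuclear shares of the 3 tissues lay within the spread between libraries.

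**Figure D1:**
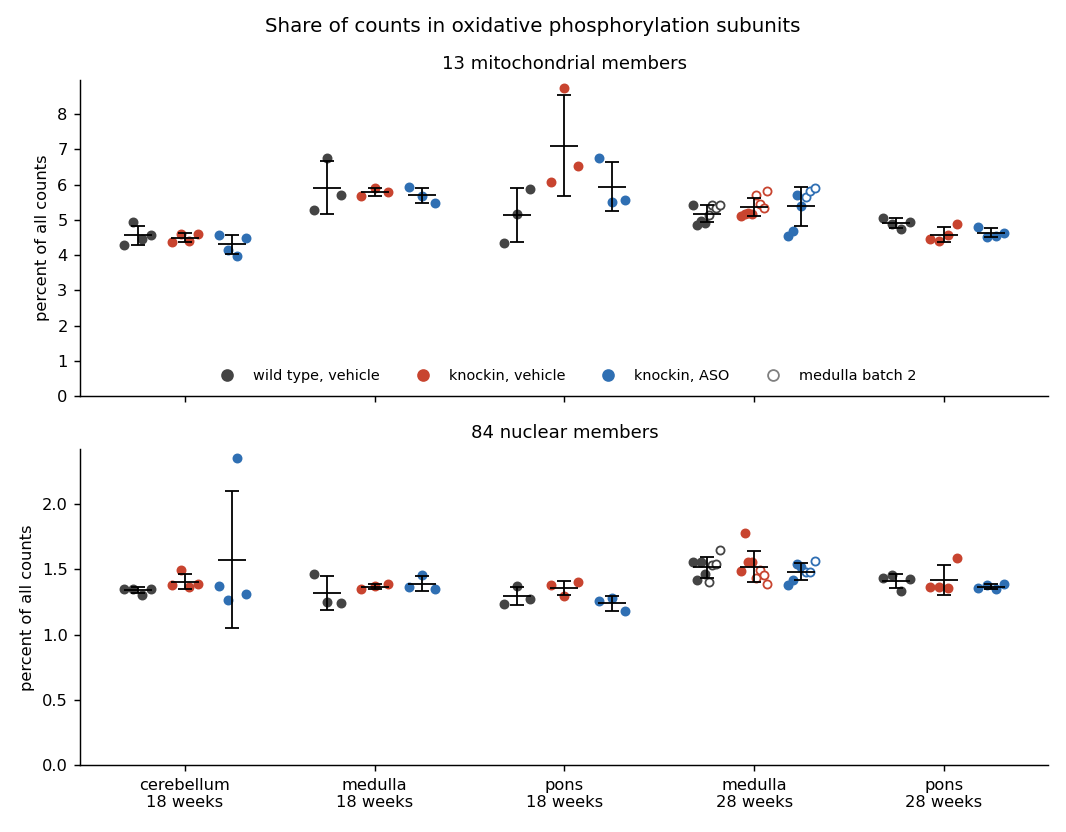
Percent of all counts in the 13 mitochondrial genes (top) and the 84 nuclear genes (bottom) for each of 65 libraries, by tissue, age and group; points are libraries, open circles are medulla batch 2, and bars give the mean and SD. A cerebellum ASO library stands at 2.35% in the nuclear set, and a pons knockin library at 18 weeks stands at 8.73% in the mitochondrial set.

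In knockin cerebellum the nuclear share was 1.41% ± 0.0597 (SD, n = 4) and the mitochondrial share 4.49% ± 0.126. In knockin medulla at 28 weeks they were 1.52% ± 0.12 (n = 8) and 5.36% ± 0.261, and in knockin pons at 28 weeks 1.42% ± 0.114 (n = 4) and 4.58% ± 0.22. Of these, the nuclear share of the cerebellum was higher, and the mitochondrial share of the pons lower, than in the wild type by more than the SD of either group. The cerebellum groups include knockin replicate 2 at 1.49% (others 1.36% to 1.38%) and wild type replicate 3 at 1.3% (others 1.34% to 1.35%). The shares were not tested. The largest mean share was that of the mitochondrial genes in knockin pons at 18 weeks, where 3 libraries held 6.06%, 8.73% and 6.51% against 5.13% ± 0.768 (n = 3) in the wild type. With the ASO the shares were 1.57% ± 0.521 and 4.30% ± 0.28 in cerebellum, 1.48% ± 0.065 and 5.38% ± 0.551 in medulla at 28 weeks, and 1.37% ± 0.0185 and 4.63% ± 0.126 in pons at 28 weeks.

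Per kilobase of merged exons, the 8 mitochondrial genes with under 95% of their 50-base stretches in other genes were by median far above the nuclear genes. Their median level in the wild type was 3760 CPM per kb in cerebellum and 4430 in medulla at 28 weeks, against nuclear medians of 70.8 and 89.4. The highest was mt-Co1, the catalytic subunit of complex IV, at 12600 CPM per kb in cerebellum and 14000 in medulla at 28 weeks. The lowest was mt-Nd6, the complex I subunit of the light strand, at 176 and 124. Among the nuclear genes of cerebellum the complex medians were 63.5 CPM per kb for complex I, 78.8 for complex II, 108 for complex III, 90.9 for complex IV and 78.3 for complex V. Cox8a, a small structural subunit of complex IV, was the highest at 511, followed in complex V by Atp5b, the catalytic beta subunit of the ATP synthase, at 379. At the low end stood Atp5g2, a gene of the membrane ring c subunit, at 1.62, Ndufa4l2, the paralogue of Ndufa4, at 1.79, and the complex IV isoforms Cox7b2 at 1.96, Cox6a2 at 2.52, Cox8b at 3.17 and Cox4i2 at 3.62. Ndufb2, an accessory subunit of complex I, came next at 6.2. For Atp5g2, 87.4% of the 50-base stretches also occur in other genes, so its level depends on how such reads were assigned. The annotated exons of Ndufb2 sum to 5.628 kb, so its level per length rests on an unusually long annotation. With the principal transcript as the length, the nuclear median was 129 CPM per kb in cerebellum and Atp5b was the highest.

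For 5 mitochondrial genes the counts depend on how reads were shared with nuclear copies of mitochondrial DNA. At least 95% of the 50-base stretches of mt-Co2, mt-Co3, mt-Atp6, mt-Nd3 and mt-Nd4l also occur in other annotated genes, the copies lying on chromosome 1, and all of those of mt-Co2 do. The share was 62.2% for mt-Nd4 and 51.1% for mt-Co1, 8.2% for mt-Nd2, 7.6% for mt-Nd5 and 0% for mt-Nd1, mt-Cytb, mt-Nd6 and mt-Atp8. The level of mt-Co2, the copper-binding subunit of complex IV, followed its copy Gm28661 closely: 178 ± 33.2 against 164 ± 33.1 CPM (SD, n = 12) in cerebellum, and 202 ± 14.4 against 186 ± 16 CPM (n = 12) in pons at 28 weeks. In batch 1 of the medulla at 28 weeks mt-Co2 stood at 225 ± 13.7 CPM (n = 12). In batch 2 of the same tissue and age mt-Co2 and its copy stood at 32.9 ± 3.35 and 20.6 ± 2.63 CPM (n = 11). The ratio of mt-Co2 to its copy ran from 1.01 to 1.17 in batch 1 and from 1.19 to 1.79 in batch 2. Other shared genes did not keep 1 ratio to their copies: that of mt-Atp6 to Gm10925 ran from 0.836 to 0.936 in cerebellum and from 4.85 to 6.98 in medulla at 18 weeks, and that of mt-Nd3 to Gm28438 from 0.561 to 0.693 in batch 1 and from 3.42 to 5.96 in batch 2 of the medulla at 28 weeks. The labels do not state how reads that match both places were assigned. The 5 shared genes are given apart below where they differ from the other 8. Those 8, called not shared below, include mt-Nd4 and mt-Co1, which also share most of their stretches.

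**Figure D2:**
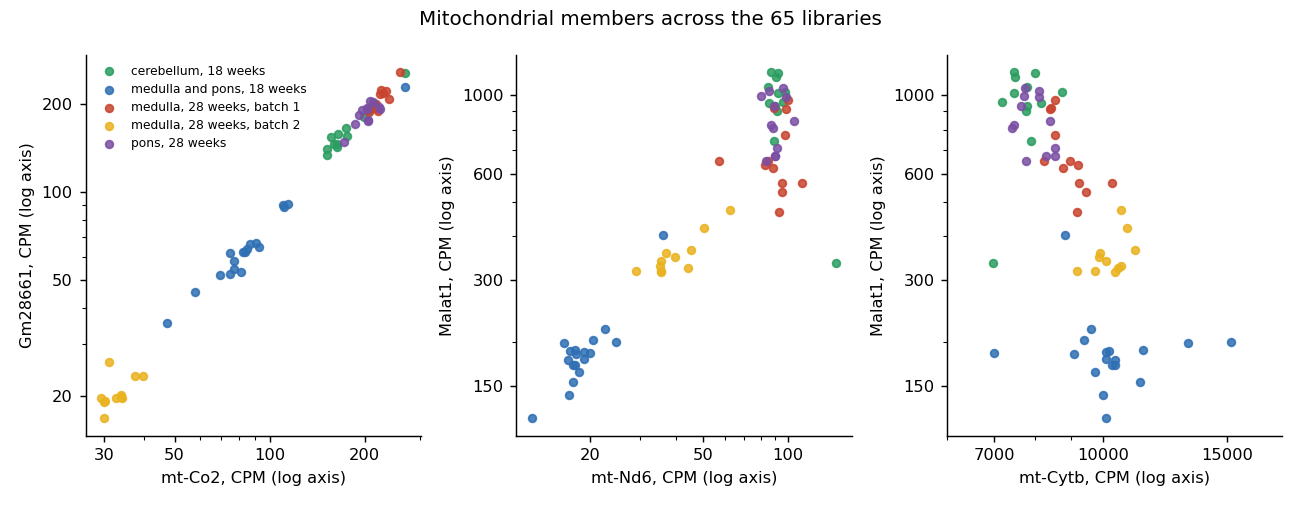
Levels in 65 libraries on log axes (CPM), coloured by library set: mt-Co2 against its nuclear copy Gm28661, and mt-Nd6 and mt-Cytb against the nuclear-retained RNA Malat1. The medulla libraries of batch 2 and those of medulla and pons at 18 weeks lie low in mt-Nd6 and Malat1. Most of them also lie low in mt-Co2 and its copy, but a pons knockin library at 18 weeks reaches 269 CPM for mt-Co2. In pons at 18 weeks mt-Cytb runs from 6990 CPM in a wild type to 15200 CPM in a knockin library.

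These library sets touch every comparison across tissues. Malat1, a long RNA retained in the nucleus, ran from 336 to 1160 CPM in cerebellum, from 468 to 969 in batch 1 and 315 to 472 in batch 2 of the medulla at 28 weeks, from 650 to 1050 in pons at 28 weeks, and from 121 to 403 in medulla and pons at 18 weeks. In the same sets mt-Nd6 ran from 84.6 to 148, 56.9 to 112, 28.9 to 62.2, 80.3 to 105 and 12.4 to 36.2 CPM. The mean log2 level of the mitochondrial genes minus that of the nuclear genes was 3.11 ± 0.111 (SD, n = 12) in batch 1 and 2.35 ± 0.128 (n = 11) in batch 2. For the 8 mitochondrial genes that are not shared it was 4.96 ± 0.116 and 5.01 ± 0.148, so the gap between the batches lay in the 5 shared genes. Groups of one tissue and age were compared within these sets or with a batch term.

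In cerebellum at 18 weeks, knockin against wild type, none of the 84 nuclear and none of the 13 mitochondrial genes passed the threshold of an adjusted p under 0.05 in edgeR's quasi-likelihood test with Benjamini-Hochberg adjustment. Of all 20350 genes tested 2.71% did. At an unadjusted p under 0.05 there were 3 nuclear genes, all lower, and 0 mitochondrial genes, and DESeq2 called 2 nuclear genes, both lower, and 6.22% of all genes. Counts at an unadjusted p are given here and below without the share of all genes, as a description only. With the ASO group left out of the fit 4 nuclear genes passed, 1 higher and 3 lower, and 16.2% of all genes did. The median log2 difference was 0.00 for the nuclear set, -0.08 for the mitochondrial set and 0.01 for all genes. Ndufs1, the core subunit that carries iron-sulfur clusters of complex I, gave 222, 197, 214 and 202 CPM in wild type and 240, 225, 232 and 219 CPM in knockin libraries.

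The 3 lower genes of the cerebellum were tissue-restricted isoforms of complex IV. Cox6a2, known as the form of heart and skeletal muscle and also present in fast-spiking interneurons, gave 1.97, 1.24, 1.97 and 1.67 CPM in the wild type, 0.908, 0.552, 0.41 and 0.271 CPM in the knockin, and 0.876, 0.821, 2.8 and 1.56 CPM with the ASO. All 4 knockin libraries lay below all 4 wild type libraries, and the ASO libraries overlapped both groups. The log2 difference was -1.67 (SE 0.435, 3.18-fold lower). Cox6a2 reached 1 CPM in 6 libraries only, 4 of wild type and 2 of ASO cerebellum, so it entered the gene set through the groups in which it is high. Its difference, and any call of Cox6a2 counted here, above or below, is a description only. Cox6b2, known as the testis isoform of a complex IV subunit, gave 9.48, 11, 7.41 and 12.3 CPM in the wild type and 5.0, 5.94, 6.04 and 6.98 CPM in the knockin (log2 difference -0.74, SE 0.225, adjusted p = 0.12 in edgeR's quasi-likelihood test and 0.019 in DESeq2). Again the groups did not overlap. Cox4i2, the isoform linked to oxygen sensing, gave 3.07, 2.7, 2.65 and 3.0 CPM in the wild type and 2.19, 1.85, 2.13 and 1.86 CPM in the knockin (log2 difference -0.50, SE 0.196, adjusted p = 0.24 in edgeR's quasi-likelihood test).

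These calls turned on a single library of the third group. ASO replicate 3 held 2.35% of its counts in nuclear subunit genes against 1.26% to 1.37% in the other ASO libraries of the cerebellum, with cytosolic ribosomal protein genes at 16200 CPM and Malat1 at 336 CPM, and it entered the shared estimate of the spread. Without it, 14.1% of all genes passed, and 4 nuclear subunit genes did, Cox6a2 among them. Of the others Cox6b2 (adjusted p = 0.017) and Cox4i2 (adjusted p = 0.028) were lower, and Ndufs1 was higher (log2 difference 0.14, adjusted p = 0.048). Purkinje cell markers were lower in the same knockin libraries, at 6160 to 7670 CPM summed over 10 genes against 10900 to 12000 CPM in the wild type, with 5 of 10 genes called lower and a median of -0.70. Of 7 nuclear-retained long RNAs 4 were higher (median 0.38). Muscle markers gave 0 calls among 4 genes tested, with a median of -0.45. In bulk tissue, fewer cells of a type and less RNA per cell cannot be told apart, and the part of the Purkinje cells in the isoform differences was not tested.

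At 18 weeks the medulla and pons gave no call among the subunit genes for knockin against wild type, and no gene of any kind passed (0% of 19514 and 0% of 19806 genes tested by edgeR). In medulla 0 nuclear genes and 1 mitochondrial gene had an unadjusted p under 0.05, and both sets had a median of 0.03. In pons 21 nuclear genes (19 higher) and 10 mitochondrial genes (all higher) had an unadjusted p under 0.05, with medians of 0.13 and 0.49, and DESeq2 also called 0 genes of either set in both tissues. The share of all genes at that unadjusted p is not given, so whether the counts exceed it is not shown. mt-Co1 gave 19100, 22900 and 24100 CPM in wild type pons, 25800, 36800 and 28500 CPM in the knockin, and 29400, 23100 and 23200 CPM with the ASO. mt-Cytb, the electron-carrying core of complex III, gave 6990, 8810 and 9620 CPM in the wild type and 10300, 15200 and 11300 CPM in the knockin. For both genes the knockin and wild type libraries did not overlap, but the knockin libraries spread widely, and the adjusted p of mt-Co1 was 0.41 in edgeR's quasi-likelihood test (log2 difference 0.48, SE 0.172). Without knockin replicate 2, the library with 8.73% of counts in mitochondrial genes, the mitochondrial median was 0.31. mt-Nd6 differed from the other 12 in sign, at -0.39 (SE 0.223, adjusted p = 0.46).

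In medulla at 28 weeks, where 19.3% of all genes passed for knockin against wild type (9.28% higher, 9.99% lower), 4 of 84 nuclear subunit genes did, all in complex I, and 0 of 13 mitochondrial genes. In this fit the share, 4 of 84, was well below that of all genes. In batch 2 alone, and without knockin vehicle replicate 2, the nuclear share was above that of all genes, as given below. Ndufs1 was higher, and Ndufb2, Ndufa10 and Ndufs7 were lower, each by less than 1.2-fold. At an unadjusted p under 0.05 there were 21 nuclear genes (17 lower) and 2 mitochondrial genes (1 higher, 1 lower). DESeq2 called 6 nuclear genes, 2 higher and 4 lower, 0 mitochondrial genes and 19.7% of all genes. The median log2 difference was -0.07 for the nuclear set, with 63 of 84 below 0, against 0.02 for the mitochondrial set and 0.01 for all genes. By complex the medians were -0.08 for complex I, -0.01 for II, -0.06 for III, -0.05 for IV and -0.07 for V.

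Ndufb2 (chr6:39592574-39603382), an accessory subunit of the membrane arm, gave a lowest, median and highest value of 30.5, 31.2 and 34.9 CPM in 8 wild type libraries, 24.0, 27.9 and 33.1 in 8 knockin libraries, and 26.8, 30.2 and 30.8 in 7 ASO libraries. The groups overlapped through 1 knockin library, replicate 2, and the other 7 lay under the lowest wild type library (log2 difference -0.18, SE 0.043, 1.13-fold lower, adjusted p = 0.005 in edgeR's quasi-likelihood test). Its exons overlap the antisense RNA Gm16272 and Braf on the opposite strand and Gm42420 on the same strand over 2.6% to 2.8% of their length. Ndufa10 (chr1:92439010-92473860), another membrane arm subunit, gave 180, 199 and 221 CPM in the wild type, 170, 184 and 190 in the knockin, and 167, 191 and 200 with the ASO (log2 difference -0.13, SE 0.038, 1.09-fold lower, adjusted p = 0.021). Ndufs7 (chr10:80249121-80256794), the core subunit holding the last iron-sulfur cluster before ubiquinone, gave 87.9, 103 and 112 CPM in the wild type and 73.8, 89.0 and 115 in the knockin, the highest value being a knockin library (log2 difference -0.16, SE 0.056, 1.12-fold lower, adjusted p = 0.048). Ndufs1 (chr1:63143596-63176833) gave 207, 219 and 236 CPM in the wild type, 222, 237 and 243 in the knockin, and 221, 238 and 250 with the ASO (log2 difference 0.10, SE 0.032, 1.07-fold higher, adjusted p = 0.036). Its exons overlap the long RNA Ino80dos on the opposite strand over 6.0% of their length. mt-Nd5, the mitochondrial gene with the smallest p, gave 4190, 4580 and 4980 CPM in the wild type and 3650, 5300 and 6510 in the knockin, so that the knockin libraries lay both below and above the wild type range (log2 difference 0.19, SE 0.073, adjusted p = 0.074).

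**Figure D3:**
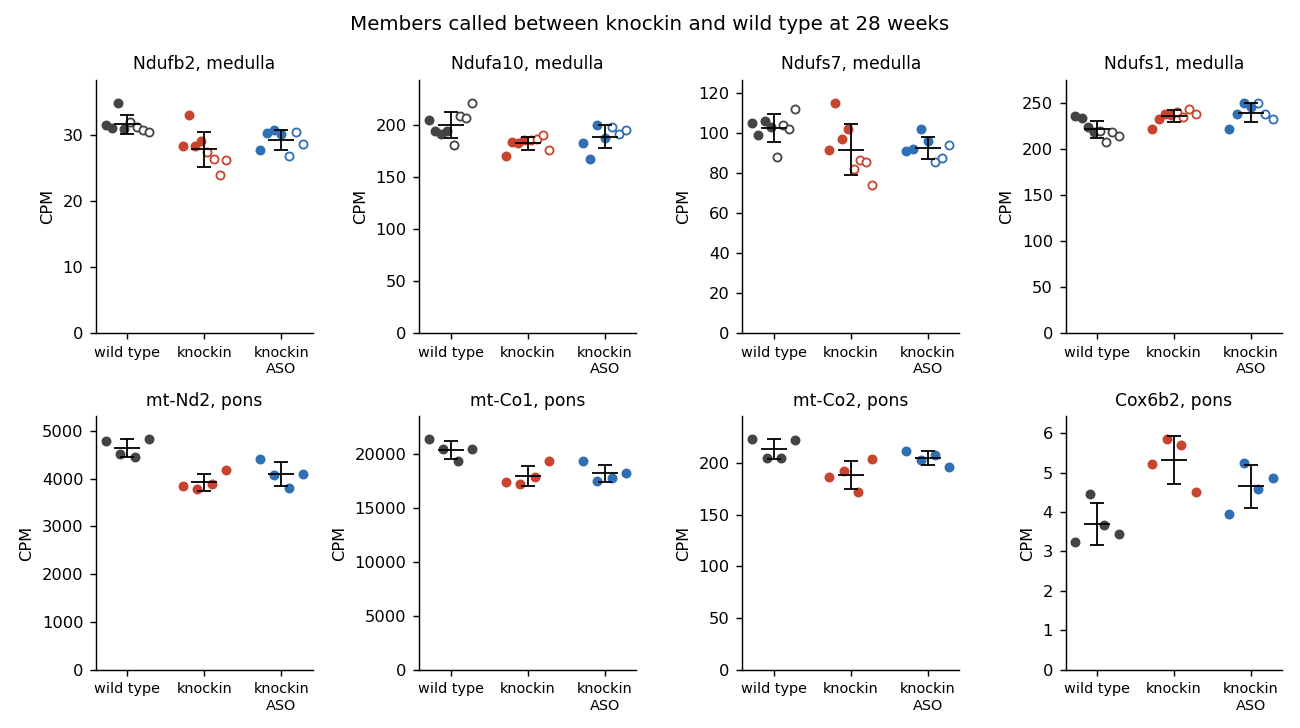
CPM per library of 8 subunit genes: Ndufb2, Ndufa10, Ndufs7 and Ndufs1 in medulla at 28 weeks and mt-Nd2, mt-Co1, mt-Co2 and Cox6b2 in pons at 28 weeks, for wild type, knockin vehicle and knockin ASO, with mean and SD; open circles are medulla batch 2. The medulla groups overlap, whereas in pons all 4 knockin vehicle libraries lie below all 4 wild type libraries for mt-Nd2 and mt-Co2 and above them for Cox6b2, and the mt-Co1 groups touch at 19300 CPM.

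The batches and single libraries of the medulla gave different counts. In batch 1 alone 0 nuclear genes passed (median 0.04; 3.14% of all genes called), and in batch 2 alone 33 did, 1 higher and 32 lower (median -0.18; 21.2% of all genes called). For Ndufb2 the log2 difference was -0.11 in batch 1 and -0.26 in batch 2, and for Ndufs7 it was -0.02 and -0.31. The test of the difference between the batches called 0 of the 97 genes, and 1 of 20465 genes in all (0.00489%). In that test 43 nuclear genes had an unadjusted p under 0.05, a count given without the share of all genes. The nuclear median was lower by 0.23 in batch 2, against a median of -0.02 for all genes. Without knockin vehicle replicate 2 of batch 1, 32 nuclear genes passed, 1 higher and 31 lower, and mt-Nd5 was higher, while 26.6% of all genes passed. That library held 1.78% of its counts in nuclear subunit genes against 1.38% to 1.56% in the other 7, and choroid plexus markers summed to 24800 CPM in it against 142 to 3570 CPM in the others. Cox6b2 stood at 21.5 CPM there, against 3.38 to 6.54 CPM in the other knockin libraries, and Cox8b, a further isoform of complex IV, at 7.98 against at most 2.2 CPM. The part of choroid plexus in the subunit levels was not tested. Since knockin vehicle replicate 2 was itself high in the nuclear genes, the counts without it are given as a description. The nuclear count was 9 without wild type replicate 5, 2 without wild type replicate 6 or 7 or knockin replicate 6, 1 without wild type replicate 8, and 2, both lower, without the 5 libraries low in Hox genes (15.9% of all genes called). For the fits without 1 of these replicates the share of all genes is not given beside the count.

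In pons at 28 weeks, for knockin against wild type, 3 of 13 mitochondrial genes were lower and 1 of 84 nuclear genes was higher, while 9.79% of all genes passed (4.14% higher, 5.65% lower). mt-Nd2, a core subunit of the proton-pumping arm of complex I (chrM:3914-4951), gave 4790, 4510, 4450 and 4820 CPM in the wild type, 3850, 3780, 3880 and 4180 in the knockin, and 4420, 4070, 3810 and 4100 with the ASO (log2 difference -0.24, SE 0.051, 1.18-fold lower, adjusted p = 0.01 in edgeR's quasi-likelihood test). mt-Co1 (chrM:5328-6872) gave 21300, 20400, 19300 and 20400 CPM in the wild type, 17400, 17200, 17800 and 19300 in the knockin, and 19300, 17500, 17700 and 18200 with the ASO (log2 difference -0.19, SE 0.048, adjusted p = 0.026 in the same test). Of the 50-base stretches of mt-Co1, 51.1% also occur in other genes. For mt-Nd2 all 4 knockin libraries lay below the wild type, for mt-Co1 the highest knockin library reached the level of the lowest wild type library, and the ASO libraries overlapped the knockin vehicle libraries in both. mt-Co2 (chrM:7013-7696), whose reads are shared with its copy, gave 223, 205, 205 and 222 CPM in the wild type and 187, 192, 172 and 204 in the knockin (log2 difference -0.18, SE 0.052, 1.13-fold lower, adjusted p = 0.043).

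The median log2 difference of the 13 mitochondrial genes in pons was -0.15, with 12 below 0, that of the nuclear genes -0.05, with 67 of 84 below 0, and that of all genes 0.01. At an unadjusted p under 0.05 there were 8 mitochondrial genes, all lower, and 11 nuclear genes, 8 of them lower. DESeq2 called 3 mitochondrial genes, all lower, 3 nuclear genes, 1 higher and 2 lower, and 15.2% of all genes. By complex the nuclear medians were -0.04 for complex I, 0.00 for II, -0.05 for III, -0.07 for IV and -0.07 for V. Cox6b2 (chr7:4751792-4753094) was the 1 nuclear gene called, with 3.23, 4.45, 3.68 and 3.43 CPM in the wild type, 5.22, 5.84, 5.71 and 4.5 in the knockin, and 3.94, 5.24, 4.58 and 4.85 with the ASO (log2 difference 0.52, SE 0.126, 1.44-fold higher, adjusted p = 0.02). All 4 knockin libraries lay above the wild type ones. Choroid plexus markers, high in the medulla library with the highest Cox6b2, summed to 45.1 to 71.9 CPM in knockin pons and 47.3 to 1320 CPM in wild type pons. The difference for Cox6b2 thus had the opposite sign in cerebellum at 18 weeks and in pons at 28 weeks, and that contrast between tissues of different age was not tested.

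**Figure D4:**
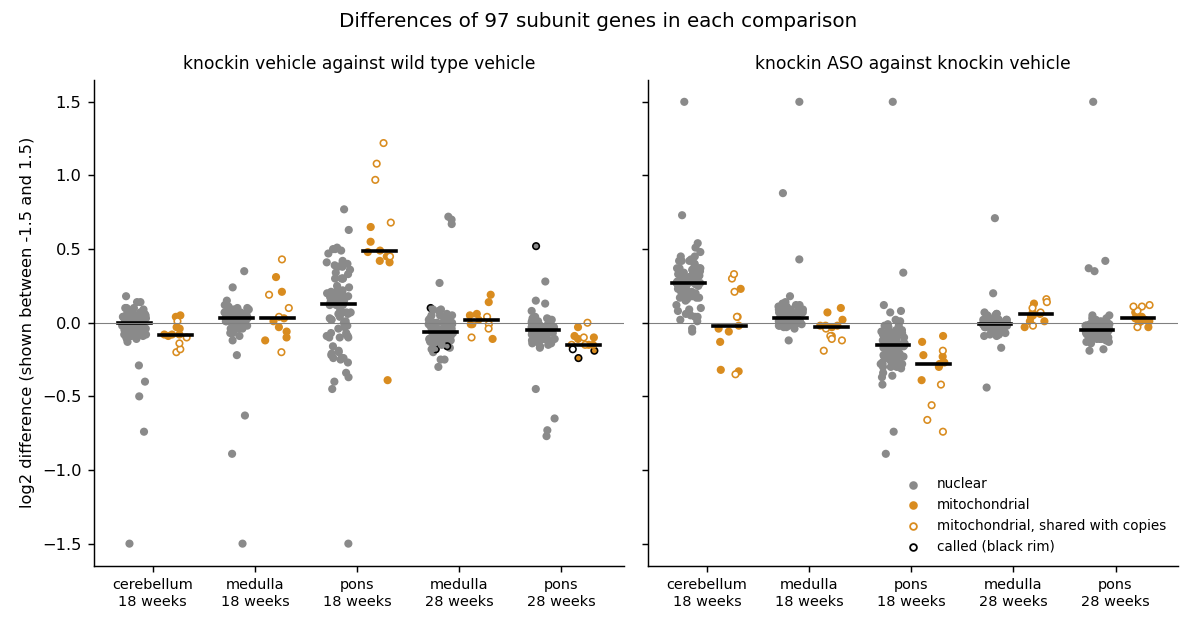
log2 differences of the 97 subunit genes for knockin against wild type (left) and ASO against vehicle in the knockin (right) in 5 tissue and age sets, nuclear and mitochondrial genes apart; open symbols are the 5 mitochondrial genes shared with nuclear copies, black rims mark genes called, black lines are medians, and values beyond 1.5 either way are drawn at the limit. In pons at 28 weeks the mitochondrial median (-0.15) lies below the nuclear one (-0.05), and in pons at 18 weeks it lies above (0.49 against 0.13).

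Knockin replicate 4 of the pons set how many subunit genes passed. It held 1.59% of its counts in nuclear subunit genes against 1.35% to 1.37% in the other 3, with cytosolic ribosomal protein genes at 9524 against 8361 to 8643 CPM and oligodendrocyte markers at 15500 against 10400 to 11200 CPM. Without it 46 nuclear genes passed, 1 higher and 45 lower (median -0.14, 79 of 84 below 0), and 10 mitochondrial genes, all lower (median -0.18), while 20.5% of all genes passed. Cox5a, a nuclear subunit of complex IV, shows the pattern: 193, 195, 186 and 207 CPM in the wild type against 166, 166, 163 and 206 CPM in the knockin, with the last value from replicate 4. Leaving that library out, its log2 difference was -0.25 (SE 0.038), and Cox4i1, the main isoform of subunit 4, stood at -0.23 and Ndufb6 of complex I at -0.22. Replicate 4 was itself high in these genes, so leaving it out lowers the knockin level. The values and counts without it are therefore a description. Without any one of the other 3 knockin libraries 0 nuclear genes and 1 mitochondrial gene passed, and 4.0% to 4.28% of all genes did. The count was also 0 nuclear genes without wild type replicate 1 or 4, 2 without ASO replicate 1, and 1 mitochondrial gene without wild type replicate 1, 2 or 4. For these fits the share of all genes is not given beside the count, so the counts are a description. mt-Nd2 passed in all 12 fits that left out a library.

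Whether the knockin difference itself differed between medulla and pons at 28 weeks was tested as an interaction. It called 0 of the 97 genes, and 4 of 21718 genes in all (0.0184%). The median of the difference between the effects was 0.15 for the mitochondrial genes and 0.00 for the nuclear genes, with 5 mitochondrial genes and 1 nuclear gene higher at an unadjusted p under 0.05, and DESeq2 called 0.

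Treatment of knockin mice with the ASO moved 0 of the 97 subunit genes past the threshold in any of the 5 sets, by edgeR's quasi-likelihood test. Of all genes, 0.0491% passed in cerebellum, 0% in medulla and in pons at 18 weeks, 1.69% in medulla and 0.0929% in pons at 28 weeks. DESeq2 called 1 nuclear gene, Cox6a2, higher in cerebellum, where it called 1.09% of all genes, and 0 subunit genes in the other sets. Cox6a2 entered the gene set through wild type and ASO cerebellum, so this call is a description only. At an unadjusted p under 0.05 there were 2 nuclear genes in cerebellum (both higher), 0 genes in medulla at 18 weeks, 11 nuclear genes in pons at 18 weeks (10 lower), 3 mitochondrial genes in medulla at 28 weeks (all higher), and in pons at 28 weeks 5 nuclear genes (2 higher) and 1 mitochondrial gene (higher). Nuclear and mitochondrial medians were 0.27 and -0.02 in cerebellum, 0.03 and -0.03 in medulla and -0.15 and -0.28 in pons at 18 weeks, and -0.01 and 0.06 in medulla and -0.05 and 0.03 in pons at 28 weeks. Without ASO replicate 3 the cerebellum medians were -0.06 and -0.03. In pons at 28 weeks all 4 ASO libraries for mt-Co1, and 3 of 4 for mt-Nd2, lay within the range of the knockin vehicle libraries, and 1 for mt-Nd2 lay between knockin vehicle and wild type.

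ASO-treated knockin mice were also set against wild type, a comparison that shares its libraries with those above. No subunit gene passed in edgeR's test in any of the 5 sets, where 0% of all genes passed in the 3 sets of 18 weeks, 3.8% in medulla and 1.07% in pons at 28 weeks. At an unadjusted p under 0.05 there were 27 nuclear genes (26 lower) and 4 mitochondrial genes (all lower) in pons at 28 weeks, with medians of -0.10 and -0.07, and 10 nuclear genes (7 lower) and 3 mitochondrial genes (all higher) in medulla at 28 weeks, with medians of -0.07 and 0.09. In cerebellum there were 0 such genes, in medulla at 18 weeks 1 mitochondrial gene and in pons at 18 weeks 2 nuclear genes. The share of all genes at that unadjusted p is not given, so these counts are a description only. DESeq2 called 1 nuclear and 2 mitochondrial genes in pons at 28 weeks, 1 of each in medulla at 28 weeks and 0 in the sets of 18 weeks, with 5.82% and 6.98% of all genes in pons and medulla at 28 weeks. With only these groups in the fit, 1 nuclear gene was called in pons (1.2% of all genes) and 1 of each set in medulla (5.89% of all genes). Without knockin vehicle replicate 4, which enters only the estimate of the spread, 11 nuclear and 2 mitochondrial genes were lower in pons, and 5.3% of all genes passed.

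Isoform families of complexes IV and V were dominated by the same members in every tissue. Levels per kilobase of merged exons gave Cox4i2 1.24% ± 0.0847 (SD, n = 4) of the Cox4i family in wild type cerebellum and 0.522% ± 0.0587 (n = 3) in medulla at 18 weeks, Cox4i1 making up the rest. Cox6a2 held 0.794% ± 0.175 of its family in wild type, 0.263% ± 0.136 in knockin and 0.589% ± 0.176 in ASO cerebellum (n = 4 each), and 0.066% to 0.22% in the wild type of the other sets. Cox6b2 held 3.16% ± 0.641 in wild type, 1.85% ± 0.281 in knockin and 2.66% ± 0.545 in ASO cerebellum, whereas in pons at 28 weeks it held 0.992% in the wild type, 1.48% ± 0.287 in the knockin and 1.33% ± 0.177 with the ASO (n = 4 each). Shares of the Cox7a family differed between tissues in the balance of its main members: Cox7a2 held 65.4% and Cox7a2l, which takes part in supercomplexes, 31.1% in wild type cerebellum, against 54.8% and 43.0% in medulla at 28 weeks. Atp5g3 held 86.8%, Atp5g1 12.1% and Atp5g2 1.1% of the c subunit genes in wild type cerebellum. The share of Atp5g2 depends on how reads that also match other genes were assigned, as given above.

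Between wild type tissues at 18 weeks many subunit genes differed, as did most genes. For cerebellum against medulla 63.2% of all genes passed (32.7% higher, 30.5% lower), and 25 nuclear genes were higher and 18 lower, with a nuclear median of 0.01. DESeq2 called 23 higher and 19 lower, and 50.5% of all genes. Cox6a2 and Cox7b2 reached 1 CPM in cerebellum only and so entered the set through the tissue in which they are higher, and without them the counts are 23 and 18. Complex IV had 8 higher and 2 lower of 19 (median 0.22; 6 and 2 without those), complex I 10 and 8 of 36, complex II 1 and 2 of 4, complex III 3 and 1 of 8, and complex V 3 and 5 of 17. As a description, the log2 difference was 2.48 for Cox6a2 and 1.27 for Cox7b2, a testis isoform. Higher in cerebellum were Cox4i2 (1.31, adjusted p = 0.00013), Cox8a (0.66, SE 0.104, adjusted p = 0.00021) and Ndufb11 of complex I (0.59). Lower were Ndufa10 (-0.62, SE 0.059, adjusted p = 3.9e-06), Ndufb5 (-0.44), Atp5s, a coupling factor of the ATP synthase (-0.42), Cox5a (-0.40) and Ndufv2 (-0.39), and also Sdha, the catalytic subunit of complex II (-0.32). Without wild type replicate 3 of the medulla, the balance was 20 higher and 25 lower, a description given without the share of all genes.

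Among the mitochondrial genes 5 were higher and 5 lower in cerebellum than in medulla at 18 weeks. mt-Nd6 was 6.03-fold higher (log2 difference 2.59, SE 0.108, adjusted p = 7.9e-09), and of the shared genes mt-Nd4l (1.17), mt-Co2 (1.16), mt-Nd3 and mt-Co3 were higher and mt-Atp6 (-0.74) was lower. mt-Nd1 and mt-Cytb (both -0.46), which share no 50-base stretch with other genes, were lower, as were mt-Nd5 (-0.70) and mt-Co1 (-0.44). The medulla and pons libraries of 18 weeks also had the low Malat1 and mt-Nd6 levels given above for their library set. For the tissues of 18 weeks, tissue and library set cannot be told apart. Cerebellum against pons gave 29 nuclear genes higher and 11 lower (59.6% of all genes passed, 28.8% higher and 30.8% lower), among them Cox6b2 (1.47) and Cox4i2 (1.08) higher and Ndufa10 (-0.54) lower, and 27 and 11 without Cox6a2 and Cox7b2. Of the mitochondrial genes 5 were higher and 3 lower. DESeq2 called 29 nuclear genes higher and 9 lower there, and 47.8% of all genes.

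**Figure D5:**
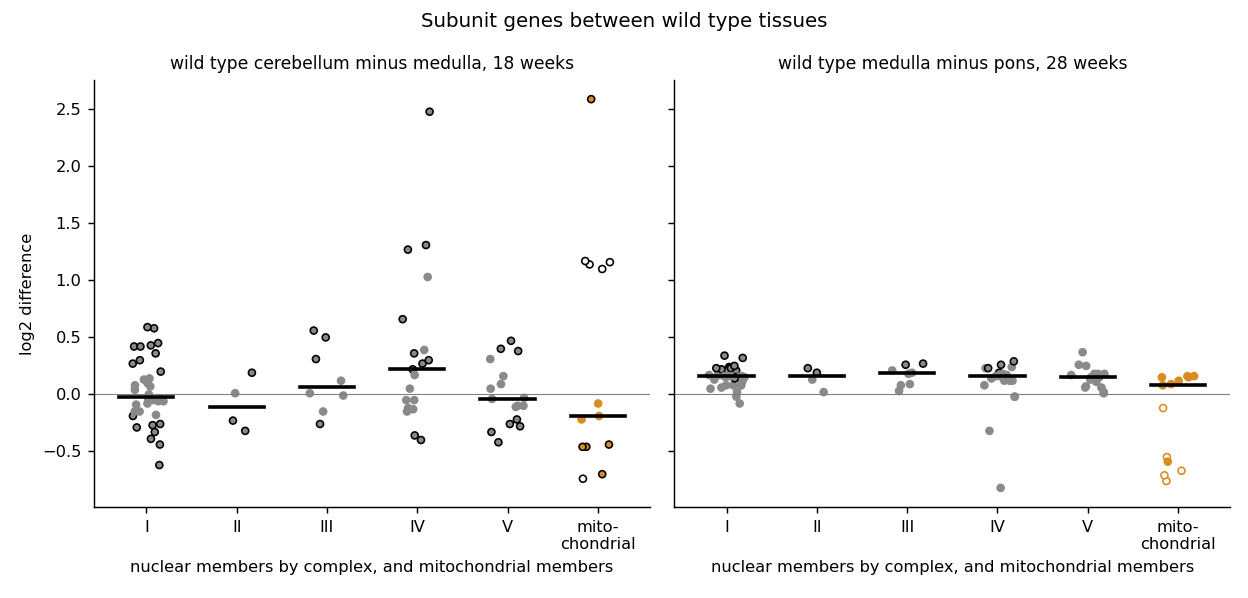
log2 differences of the 97 subunit genes by complex for wild type cerebellum minus medulla at 18 weeks and wild type medulla minus pons at 28 weeks; black rims mark genes called and open symbols the 5 mitochondrial genes shared with nuclear copies. Cerebellum and medulla differ in both directions, whereas 78 of 84 nuclear genes lie above 0 in medulla against pons.

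Between medulla and pons of wild type mice at 18 weeks no subunit gene passed in edgeR's test, and 0.23% of all genes did. At an unadjusted p under 0.05 there were 0 nuclear and 2 mitochondrial genes, and DESeq2 called 1 mitochondrial gene, lower in medulla, and 1.74% of all genes. At 28 weeks 19 nuclear genes were higher in medulla and 0 lower, while 10.9% of all genes passed (5.6% higher, 5.27% lower). The wild type medulla libraries came from both batches, and this fit had no batch term. DESeq2 called 27 nuclear genes, all higher, and 16.7% of all genes. The nuclear median was 0.16, with 78 of 84 above 0. Complex I had 11 of its 36 nuclear genes higher, II 2 of 4, III 2 of 8, IV 4 of 19 and V 0 of 17. Ndufb8 (0.34, adjusted p = 0.013) and Ndufb7 (0.32), accessory subunits of complex I, and Cox6c (0.29), Uqcr11 (0.27) and Uqcrq (0.26) showed the largest differences among genes called. No mitochondrial gene passed, with a median of 0.13 for the 8 genes not shared and -0.67 for the 5 shared ones, and with medulla batch 1 alone the shared median was 0.07. With that batch alone 23 nuclear genes passed (median 0.11; 14.7% of all genes called). Of the cytosolic ribosomal protein genes 8 of 81 were higher and 1 lower, with a median of 0.18. Medulla and pons libraries of the same replicate carry the same header number, and with that number as a block 20 nuclear genes passed. The count changed with single libraries: it was 0 without pons replicate 3, 1 without pons replicate 1, 4 without pons replicate 2 or 4 or medulla replicate 7, 7 without medulla replicate 6, 11 and 12 without medulla replicates 3 and 1, and 33 without medulla replicate 5. Medulla replicate 5 is a library low in Hox genes (42.4 CPM). No share of all genes is given beside these counts or the block count, so they are a description.

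Genes that build and serve the complexes were followed in lists of their own. In medulla at 28 weeks, knockin against wild type, 10 of 47 assembly factors were lower and 0 higher (median -0.07), among them Bcs1l (-0.24), which inserts the Rieske protein of complex III, and Ecsit (-0.15), a complex I assembly factor. Of 77 mitochondrial ribosomal protein genes 1 was higher and 11 lower (median -0.06), with Mrpl18 at -0.17 and Mrpl19 at -0.14, and of 81 cytosolic ribosomal protein genes 11 were lower and 0 higher (median -0.11). TCA cycle genes gave 3 higher and 0 lower of 19, Pdha1 (0.18), a subunit of pyruvate dehydrogenase, and Suclg2 (0.35) among them. Genes of mitochondrial transcription and RNA processing gave 4 higher and 2 lower of 28, with Ssbp1 at 0.20 and Fastkd2 at -0.17. Electron carriers and coenzyme Q genes gave 2 higher and 1 lower of 16 (Etfdh 0.34), import and carrier genes 1 and 2 of 27 (Tomm40 -0.14), nuclear regulators of mitochondrial genes 1 and 0 of 16 (Nfe2l2 0.20) and glycolysis 1 and 3 of 19 (Aldoc -0.57). The 2 mitochondrial ribosomal RNAs gave 0 calls. Each share is to be read against the 19.3% of all genes that passed.

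In pons at 28 weeks, where 9.79% of all genes passed, mitochondrial ribosomal protein genes had 0 higher and 3 lower of 77, assembly factors 1 and 1 of 47 (Foxred1 0.13, Coa4 -0.51), TCA cycle genes 1 and 0 of 19 (Idh2 0.37), transcription and RNA processing 1 and 0 of 28, regulators 0 and 1 of 16 (Esrrb -0.59), import and carriers 1 and 1 of 27, glycolysis 1 and 2 of 19, cytosolic ribosomal proteins 1 and 0 of 81, and electron carriers 0 of 16. The medians of these lists lay between -0.04 and 0.03, against -0.15 for the 13 mitochondrial subunit genes. In cerebellum at 18 weeks, where 2.71% of all genes passed, Slc25a22, a glutamate carrier, was the 1 gene called among the import and carrier genes (-0.29), Aldoc the 1 glycolysis gene (-0.87), and the lists of assembly factors, both kinds of ribosomal proteins, the TCA cycle, RNA processing, electron carriers and regulators gave 0 calls.

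Cell type markers moved with the knockin groups in the same libraries. In medulla at 28 weeks 7 of 10 astrocyte, 7 of 10 oligodendrocyte and 5 of 11 neuron markers were lower (9.99% of all genes were), with summed levels of 2550 to 3560 CPM in the knockin against 3980 to 5150 in the wild type for astrocytes, 13400 to 19300 against 18800 to 24800 for oligodendrocytes, and 8130 to 10300 against 10200 to 11400 for neurons. In pons at 28 weeks 5 of 10, 5 of 10 and 5 of 11 were lower (5.65% of all genes were), with 2240 to 2680 against 3510 to 3720 CPM for astrocytes, 10400 to 15500 against 16900 to 18300 for oligodendrocytes, and 7930 to 9020 against 9650 to 9940 for neurons. With the ASO, 6 of 10 astrocyte and 4 of 10 oligodendrocyte markers were higher than with vehicle in medulla at 28 weeks, where 1.69% of all genes passed. Microglia, blood, choroid plexus and muscle markers gave 0 calls for knockin against wild type in both tissues at 28 weeks, and endothelial markers 2 lower of 9 in pons. The part of these markers' cells in the subunit differences was not tested.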

How the data were processed

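Total RNA was sequenced on an Illumina instrument, per the labels. The authors deposited raw counts per gene, which the submitters' processing notes tie to CASAVA 1.8, HISAT2 2.0.2, featureCounts and GRCm38. Between 70.0% and 78.6% of the counts from 1 to 20 were even, which would follow if a fragment added 2 to its gene, and depth in fragments would then be lower than the counts given. Of 49670 gene identifiers 49411 were named with GENCODE vM21.

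From these counts, levels were computed as TMM-scaled CPM over all 65 libraries. Groups were compared with edgeR 4.0.16 in R 4.3.3 (quasi-likelihood test, TMM, filterByExpr, Benjamini-Hochberg adjustment over all genes tested, calls at an adjusted p under 0.05), with 1 model of 3 groups per tissue and age and a batch term for medulla at 28 weeks. Wild type tissues were compared in models of their own, without a batch term. Alternatives included DESeq2 1.42.0, another filter and scaling, fits of the 2 groups alone, a replicate block and leaving out each library. The pipeline was tested on simulated data.

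The members and gene lists were chosen with earlier results of these data known. Any member could be named. The text names the called genes of largest change, the mitochondrial members, isoform families and core subunits, and up to 2 called genes per pathway list by smallest p. Further isoforms and genes called only without a library were named after their values were seen.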

Additional observations from a re-analysis of the deposited data

Results flagged for a closer look

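In 7 of 54 groups of 4 to 10 libraries tested, 1 library stood far from the others by Dixon's criterion, which chance alone meets in about 1 of 20 groups. For the percent of counts in nuclear subunit genes, 4 libraries were high: cerebellum ASO replicate 3 at 2.35% (others 1.26% to 1.37%), cerebellum knockin vehicle replicate 2 at 1.49% (others 1.36% to 1.38%), medulla knockin vehicle replicate 2 at 28 weeks at 1.78% (others 1.38% to 1.56%) and pons knockin vehicle replicate 4 at 28 weeks at 1.59% (others 1.35% to 1.37%). Cerebellum wild type replicate 3 was low at 1.30% (others 1.34% to 1.35%). The mean log2 level of the mitochondrial minus the nuclear genes was 1.99 in cerebellum ASO replicate 3, against 2.99 to 3.01 in the other 3 ASO libraries. Ndufb2 stood at 34.9 CPM in medulla wild type replicate 3 at 28 weeks, against 30.5 to 32.0 CPM in the other 7. Of these, cerebellum ASO replicate 3, medulla knockin replicate 2 and pons knockin replicate 4 each changed the number of subunit genes called for knockin against wild type when left out.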

How the results depend on the processing

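None of the called genes changed sign under the alternatives run, but medians and splits did. Without the library labelled wild type replicate 3 of the medulla, the nuclear split for cerebellum against medulla went from 25 higher and 18 lower to 20 and 25. The nuclear median for ASO against vehicle in cerebellum went from 0.27 to -0.06 without ASO replicate 3, that for knockin against wild type in medulla at 28 weeks from -0.07 to 0.04 in batch 1, and the median of the 5 shared genes for medulla against pons at 28 weeks from -0.67 to 0.07 with batch 1. Under DESeq2 the nuclear genes called for knockin against wild type were 2 in cerebellum and 3 in pons at 28 weeks. For ASO against vehicle 1 was called in cerebellum, Cox6a2, as a description only. For ASO against wild type DESeq2 called 1 in medulla and 1 in pons at 28 weeks. The mitochondrial genes called by it were 1 and 2 for ASO against wild type in medulla and pons at 28 weeks, and 1 for medulla against pons at 18 weeks. With only the 2 groups compared, 4 nuclear genes were called for knockin against wild type in cerebellum, 1 for ASO against wild type in pons, and 1 nuclear and 1 mitochondrial gene in medulla at 28 weeks. For knockin against wild type in medulla at 28 weeks the nuclear count was 0 in batch 1, 33 in batch 2, 2 with no filter on low counts and 2 without the 5 libraries low in Hox genes, and the mitochondrial count in batch 2 was 1. Of the 8 mitochondrial genes outside the 5 shared ones, 5 were called for cerebellum against medulla and 3 against pons. The mean log2 level of the 8 exceeded that of the nuclear genes by 4.82, 5, 5.16, 4.98 and 5 in the 5 sets. With the replicate number as a block, cerebellum against pons gave 25 nuclear genes, although 0 of its 3 pairs carry the same number in the headers. The block moved no other count by over 1.5 times. Within a tissue and age, libraries of the same replicate number carry different header numbers. The correlations of their deviations from the group mean ran from -0.25 to 0.18, and in no comparison were all pairs over 0.1. Libraries that share a header number under different replicate numbers were not paired in this check. For wild type medulla against pons, where all 3 pairs at 18 weeks and all 4 at 28 weeks carry the same header number, the correlations ran from -0.04 to 0.13 and from -0.06 to 0.15. Whether that number marks a mouse is not stated.

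Leaving out 1 library at a time, the nuclear and mitochondrial counts for knockin against wild type ran from 0 to 4 and stayed 0 in cerebellum, from 1 to 32 and 0 to 1 in medulla at 28 weeks, and from 0 to 46 and 1 to 10 in pons at 28 weeks. For ASO against wild type they ran from 0 to 2 and 0 to 1 in medulla and from 0 to 11 and 0 to 2 in pons at 28 weeks, and for ASO against vehicle in medulla at 28 weeks the mitochondrial count ran from 0 to 1. Between tissues they ran from 34 to 46 and 10 to 12 for cerebellum against medulla, from 29 to 46 and 7 to 12 for cerebellum against pons, and from 0 to 33 and 0 to 1 for medulla against pons at 28 weeks. The other counts stayed 0. Counts from these fits or from the block that stand here or above without a share of all genes are a description only. The cause of these changes was not tested.

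Differences of under 1.2-fold rest on 3 to 8 libraries a group, and Cox6a2 lies near 1 CPM. Reads of the 5 shared mitochondrial genes cannot be told apart from those of their nuclear copies.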
